A study of Mus musculus with 6 samples.

Results

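The 10 genes described here make, activate and place long polyunsaturated fatty acids in mouse liver. They were chosen by function, with earlier results of these data known. They are the fatty acid desaturase genes Fads1, Fads2 and Fads3, the elongase genes Elovl2 and Elovl5, the acyl-CoA ligase genes Acsl3, Acsl4 and Acsl5, the lysophospholipid acyltransferase gene Lpcat3, and Pla2g12b, a member of the phospholipase A2 family. Of these 10, 9 had a probe of their own on the array and were among the 13493 genes tested. The only probe of Acsl3 also names Utp14b, so its values are given apart.

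Expression was measured on 6 arrays of liver RNA from male C57BL/6 mice, obtained at 8 weeks of age and acclimatized for 1 week. The Vascepa group (3 arrays) received Vascepa for 7 days before 6 weeks of high-fat diet. The vehicle group (3 arrays) received vehicle for the same 7 days and then the same diet. Vascepa is a preparation of icosapent ethyl, an ester of eicosapentaenoic acid. The labels give no dose and do not say whether dosing went on during the diet, and no group without the diet was analysed here. Since no label ties a sample to an animal of its own, each p-value measures only sample-to-sample spread, part of which may be technical.

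Mammals make long polyunsaturated fatty acids from dietary linoleic and alpha-linolenic acid by alternating desaturation and elongation in the endoplasmic reticulum. Acyl-CoA ligases activate fatty acids, and acyltransferases such as Lpcat3 place them in membrane phospholipids. In liver the desaturase genes are driven by SREBP-1c and also respond to LXR and PPAR alpha, and dietary polyunsaturated fatty acids are known to lower Fads1 and Fads2 expression. Eicosapentaenoic acid is itself a product of Fads1 and a substrate of Elovl5 and Elovl2.

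The arrays differed in ways that crossed the groups. Over all tested genes, the Pearson r of 2 arrays lay between 0.906 and 0.986. Vascepa replicate 3 stood farthest from the others, with a mean r of 0.938. The mean log2 level of 68 small nucleolar RNA genes was 5.67, 6.82 and 7.36 on Vascepa arrays 1, 2 and 3, and 5.80, 6.69 and 6.06 on vehicle arrays 1, 2 and 3. Hepatocyte markers were lower in the Vascepa mean in 10 of 11 cases, beside 60.1% of all genes. All 11 lay above the intensity filter, and brighter genes leaned further down, as given further on. The groups did not overlap in 2 of the 11, beside 8.24% of all genes. In limma 0 of the 11 had an unadjusted p under 0.05. The summed level of the 11 spanned 15.06 to 15.45 (log2) on Vascepa arrays and 15.38 to 15.46 on vehicle arrays. Markers of Kupffer cells and other macrophages were lower in 10 of 12 cases, beside the same 60.1% of all genes. Their summed level was 9.71 to 10.49 on Vascepa arrays and 10.20 to 10.41 on vehicle arrays, and all 12 lay above the filter. In limma 3 of these 12 had an unadjusted p under 0.05, beside 2.68% of all genes, and 0 passed after adjustment. The groups did not overlap in 3 of the 12, beside 8.24% of all genes. The macrophage markers Vsig4 and Cd68 differed by −0.53 ± 0.18 and −0.54 ± 0.20 (SE). Of 8 skeletal muscle markers with a probe 5 lay above the filter, and Myh4, Myh1 and Mylpf did not. Of those 5, 4 were higher in the Vascepa mean, while 60.1% of all genes were lower. The groups did not overlap in 2 of the 5, beside 8.24% of all genes. In limma 1 of the 5 (Acta1) had an unadjusted p under 0.05, beside 2.68% of all genes, and 0 passed after adjustment. The summed level of all 8 was 6.18 to 6.29 on Vascepa arrays and 5.90 to 6.04 on vehicle arrays, without overlap. All 4 pancreatic acinar markers above the filter were higher in the Vascepa mean, with a median of 0.29. The groups did not overlap in 1 of the 4, and 0 had an unadjusted p under 0.05 in limma. With Cpa1 and Prss1, which lay below the filter, the summed level of the 6 was 5.93 to 6.09 on Vascepa arrays and 5.58 to 5.99 on vehicle arrays. The muscle marker Mb (3.06 to 3.94 over all arrays) and the acinar marker Clps (2.42 to 3.52) were dim beside the filter of 2.65. Acta1, of muscle, was brighter (4.06 to 4.75). The array median was 2.63, 2.70 and 2.81 on Vascepa arrays 1, 2 and 3. It was 2.62, 2.67 and 2.62 on vehicle arrays 1, 2 and 3. Whether these medians have a part in the muscle and acinar values was not tested. The part of RNA composition and cell content in the values below was not tested. In whole liver, fewer cells of a type and less RNA per cell cannot be told apart.

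The regions before the start sites are shown for 4 of the 7 genes whose levels varied together across the arrays, as described further on. They are RefSeq sequences of assembly GRCm38.p6, whose promoter table matched 9 of the 10 genes with 10 start sites, 2 of them in Elovl2. Fads1 had no entry there, and the windows of Acsl4 and Acsl5, which lay inside the RefSeq spans of the genes, are not printed. Fads2 is chr19:10101504-10101753 (minus strand), Elovl2 is chr13:41220404-41220653 (minus strand), Elovl5 is chr9:77917115-77917364 (plus strand) and Lpcat3 is chr6:124662854-124663093 (plus strand). Capitals mark the CCAAT box, read on either strand.
Fads2: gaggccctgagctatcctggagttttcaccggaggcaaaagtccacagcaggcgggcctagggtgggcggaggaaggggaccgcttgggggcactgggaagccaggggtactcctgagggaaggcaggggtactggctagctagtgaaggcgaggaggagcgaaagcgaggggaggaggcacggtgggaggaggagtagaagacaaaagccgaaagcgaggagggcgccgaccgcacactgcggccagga
Elovl2: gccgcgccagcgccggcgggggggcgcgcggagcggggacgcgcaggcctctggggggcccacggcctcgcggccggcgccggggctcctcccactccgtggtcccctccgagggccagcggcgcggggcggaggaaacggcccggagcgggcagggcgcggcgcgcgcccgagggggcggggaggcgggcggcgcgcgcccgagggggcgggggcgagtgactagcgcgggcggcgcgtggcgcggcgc
Elovl5: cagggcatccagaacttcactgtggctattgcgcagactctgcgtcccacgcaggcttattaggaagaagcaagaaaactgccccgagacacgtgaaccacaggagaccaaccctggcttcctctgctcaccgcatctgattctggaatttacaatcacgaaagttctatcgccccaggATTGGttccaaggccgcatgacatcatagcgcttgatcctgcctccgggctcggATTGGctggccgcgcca
Lpcat3: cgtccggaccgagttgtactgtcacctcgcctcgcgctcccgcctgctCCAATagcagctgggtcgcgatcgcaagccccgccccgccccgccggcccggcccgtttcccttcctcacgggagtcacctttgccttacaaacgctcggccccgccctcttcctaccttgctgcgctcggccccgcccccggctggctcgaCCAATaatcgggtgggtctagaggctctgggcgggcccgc

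The CCAAT box (letters CCAAT, both strands), bound by NF-Y, is known to lie beside SREBP sites in many lipid genes. Within 250 bases before the start site it occurred 2 times in Elovl5 and 3 times in Lpcat3, 1 of these outside the 240 bases printed, and 0 times in Fads2 and Elovl2. At least 1 match was found in 5 of the 10 windows of these genes, against 33.85% of all 32851 windows in the table. The GC box, bound by Sp1 (letters GGGCGG, both strands), occurred 5 times in the printed window of Elovl2, 0 times in that of its other start site, 5 times in the window of Lpcat3 and 1 time in that of Fads2. It was present in 6 of the 10 windows, against 32.74% of all windows. Neither the nuclear receptor half-site (letters AGGTCA, in 14.02% of all windows) nor the end of the sterol regulatory element (letters ACCCCAC, in 5.44%) was found in these windows. A match is a run of letters, and the absence of one covers only the window searched.

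None of the 9 tested genes differed between Vascepa and vehicle livers beyond the spread between arrays. The values below are log2 expression, and differences are Vascepa minus vehicle with limma's moderated standard error (SE). At an adjusted p under 0.05, limma called 0 of 9, as it called 0% of all 13493 genes. At an unadjusted p under 0.05 there were 0 of 9, against 2.68% of all genes. The groups overlapped in all 9 genes, while they did not overlap in 8.24% of all genes. Vascepa livers had the lower group mean in 8 of the 9, and the median difference was −0.22, beside 60.1% of all genes and a median of −0.063. Brighter genes leaned further down. With the filter at the 75th percentile, the median was −0.14 over all 7211 genes and −0.30 over the 8 of these genes that were kept. With quantile normalization applied again 6 of the 9 were lower, as Acsl4 and Pla2g12b changed sign.

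**Figure D1:**
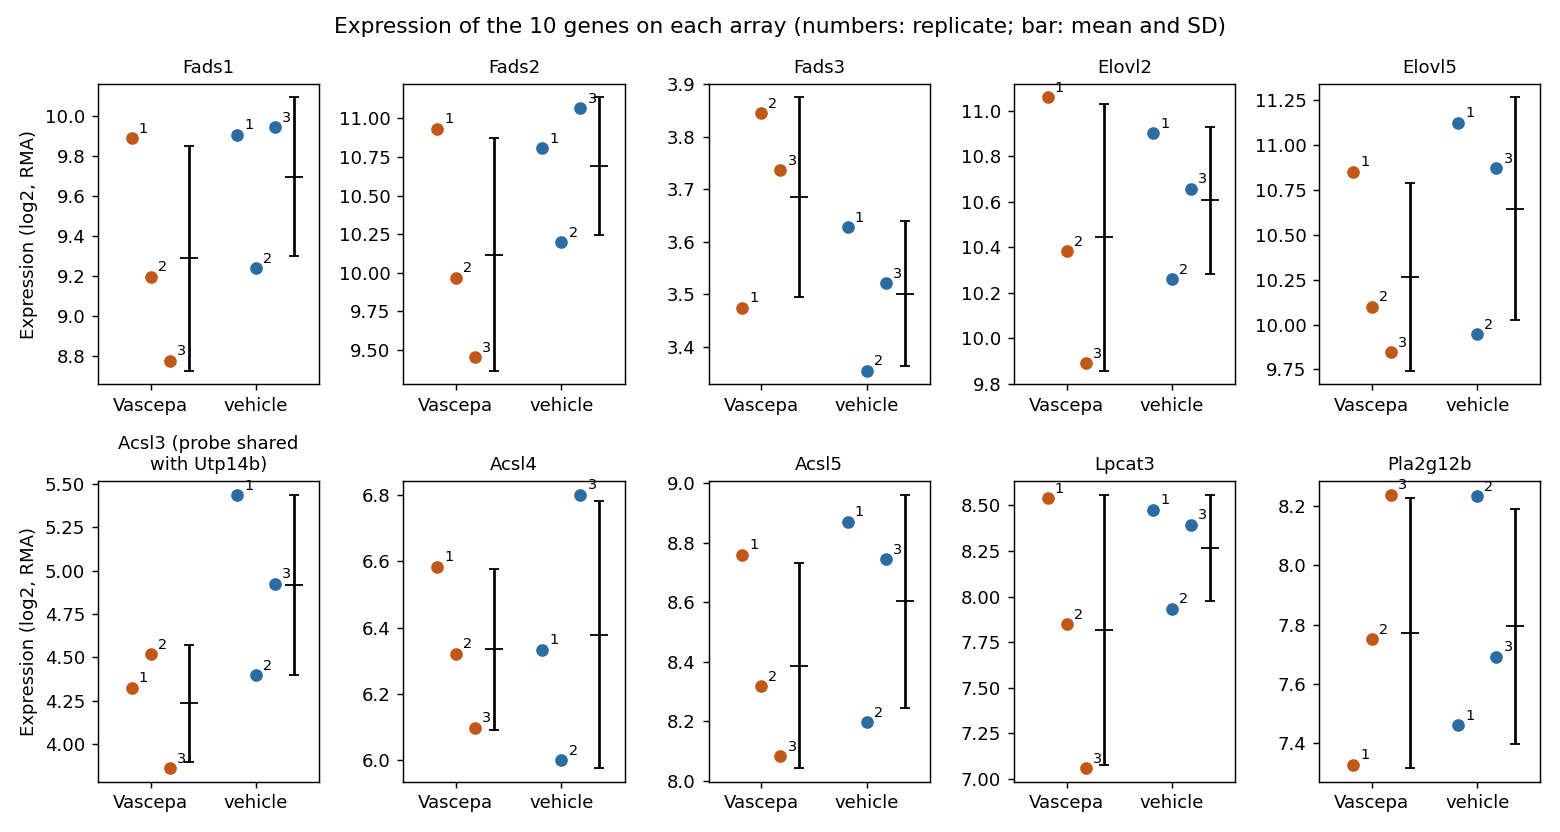
Expression of each of the 10 genes (y axis, log2, with its own scale per gene) on the 3 Vascepa and the 3 vehicle arrays. Points carry replicate numbers, and the bar beside each group is its mean with SD. In every gene the points of the groups overlap in level, and Vascepa replicate 3 is the lowest point in 7 of the 10 genes.

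Among the desaturases, Fads2 encodes the delta-6 desaturase, which takes the first and rate-limiting step of the pathway. It read 10.93, 9.97 and 9.45 on Vascepa arrays 1, 2 and 3, and 10.81, 10.20 and 11.07 on vehicle arrays 1, 2 and 3. Vascepa 1 lay among the vehicle arrays 1 and 3, and the lowest vehicle array lay above the other 2 Vascepa arrays. The means were 10.12 ± 0.75 in Vascepa livers and 10.69 ± 0.45 in vehicle livers (SD, n = 3 each). The difference of −0.57 ± 0.39 (SE) is a 1.49-fold lower mean, and its 95% interval ran from 2.80-fold lower to 1.26-fold higher (limma, adjusted p = 0.976).

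Fads1, the delta-5 desaturase, makes arachidonic and eicosapentaenoic acid. It read 9.89, 9.20 and 8.78 on the Vascepa arrays, against 9.91, 9.24 and 9.95 on the vehicle arrays. Vascepa 1 was level with vehicle 1 and 3, and vehicle 2 was level with Vascepa 2. The means were 9.29 ± 0.56 in Vascepa livers and 9.70 ± 0.40 in vehicle livers (SD, n = 3 each), a difference of −0.41 ± 0.33 (SE) with a 95% interval of −1.16 to 0.34 (limma, adjusted p = 0.976).

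Fads3, a related desaturase that acts on sphingoid bases, did not share this pattern. It was dim, at 3.47, 3.84 and 3.74 on the Vascepa arrays, against 3.63, 3.35 and 3.52 on the vehicle arrays. Vascepa 2 and 3 were the highest, while Vascepa 1 lay below vehicle 1 and 3. It differed by 0.18 ± 0.19 (SE), with a 95% interval of −0.25 to 0.62 (limma, adjusted p = 0.976). In RefSeq the 3 Fads genes are neighbours on chromosome 19, with no other protein-coding gene lying wholly between them.

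Of the elongases, Elovl5 lengthens the shorter polyunsaturated precursors and read 10.85, 10.10 and 9.85 on the Vascepa arrays, against 11.12, 9.95 and 10.87 on the vehicle arrays. Each group held low arrays, Vascepa 2 and 3 in one and vehicle 2 in the other, and the other arrays lay above them. The means were 10.27 ± 0.52 in Vascepa livers and 10.65 ± 0.62 in vehicle livers (SD, n = 3 each), and the difference was −0.38 ± 0.37 (SE), with a 95% interval of −1.24 to 0.48 (limma, adjusted p = 0.976). Elovl2, which lengthens the longer precursors of docosahexaenoic acid, read 11.06, 10.38 and 9.89 on the Vascepa arrays, against 10.90, 10.26 and 10.66 on the vehicle arrays. The highest and the lowest of its 6 values were both on Vascepa arrays. It differed by −0.16 ± 0.32 (SE), with a 95% interval of −0.90 to 0.58 (limma, adjusted p = 0.976), and without Vascepa replicate 3 the difference was 0.12.

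Of the acyl-CoA ligases, Acsl5, an enzyme abundant in liver and gut, read 8.76, 8.32 and 8.08 on the Vascepa arrays, against 8.87, 8.20 and 8.74 on the vehicle arrays. Vascepa 1 lay between vehicle 1 and 3, and vehicle 2 lay between Vascepa 2 and 3. The difference was −0.22 ± 0.26 (SE), with a 95% interval of −0.82 to 0.38 (limma, adjusted p = 0.976). Acsl4, which prefers arachidonic acid and is known for its part in ferroptosis, read 6.58, 6.32 and 6.10 on the Vascepa arrays, against 6.33, 6.00 and 6.80 on the vehicle arrays. The 3 Vascepa arrays lay within the range of the vehicle arrays, and the difference was −0.044 ± 0.25 (SE; limma, adjusted p = 0.987), with a 95% interval of −0.63 to 0.54.

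The probe shared by Acsl3, a ligase of the endoplasmic reticulum and lipid droplets, and Utp14b read 4.32, 4.52 and 3.86 on the Vascepa arrays, against 5.44, 4.40 and 4.92 on the vehicle arrays. Vehicle 1 and 3 were above all Vascepa arrays, and vehicle 2 lay among them. The means were 4.23 ± 0.34 in Vascepa livers and 4.92 ± 0.52 in vehicle livers (SD, n = 3 each), a difference of −0.68. A two-sided exact permutation test over the 6 arrays gave p = 0.2, where 0.1 is the smallest that 3 against 3 allows. The signal cannot be divided between the 2 genes.

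Lpcat3 places polyunsaturated fatty acids, arachidonic acid above all, in phosphatidylcholine. It read 8.54, 7.85 and 7.06 on the Vascepa arrays, against 8.47, 7.93 and 8.39 on the vehicle arrays. The highest value was on Vascepa 1, and the lowest on Vascepa 3. The means were 7.82 ± 0.74 in Vascepa livers and 8.27 ± 0.29 in vehicle livers (SD, n = 3 each). The difference of −0.45 ± 0.36 (SE) had a 95% interval of −1.29 to 0.39 (limma, adjusted p = 0.976), and it was −0.072 without Vascepa replicate 3. Pla2g12b encodes a catalytically inactive relative of phospholipase A2 that takes part in the lipid loading of very low-density lipoprotein (VLDL). It read 7.33, 7.75 and 8.24 on the Vascepa arrays, against 7.46, 8.23 and 7.69 on the vehicle arrays, an order of arrays nearly opposite to that of Fads1 and Fads2. The difference was −0.023 ± 0.30 (SE; limma, adjusted p = 0.993), with a 95% interval of −0.71 to 0.66.

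**Figure D2:**
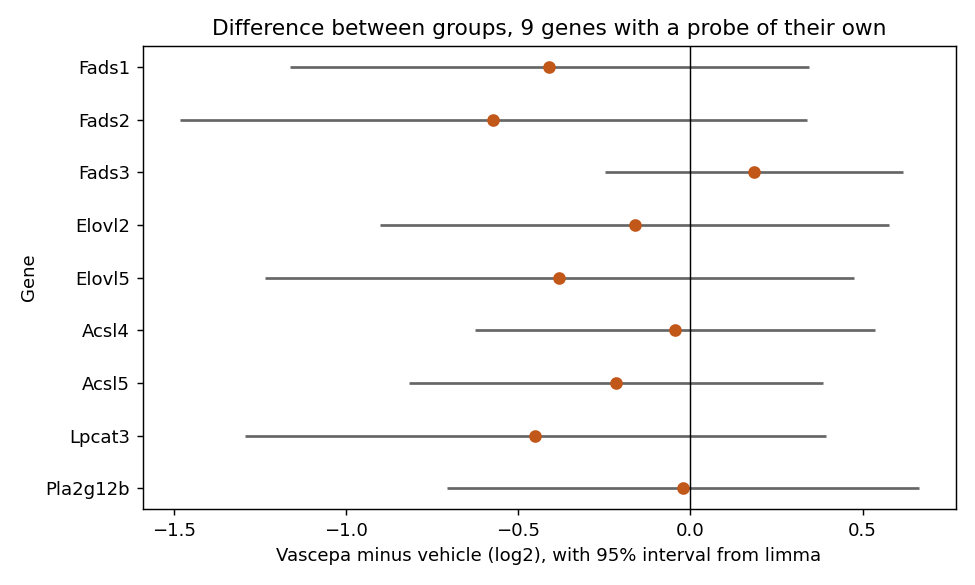
Vascepa minus vehicle difference (x axis, log2) of the 9 tested genes, with limma's 95% interval as a line. Points run from −0.57 for Fads2 to 0.18 for Fads3, and every interval crosses 0.

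Over the 6 arrays of both groups, the genes differed in how far they ranged. From the lowest to the highest array, Fads2 spanned 3.06-fold, Lpcat3 2.79-fold, Elovl5 2.42-fold, and Fads1 and Elovl2 2.25-fold each. Acsl4 and Acsl5 spanned 1.74-fold and 1.73-fold, Pla2g12b 1.88-fold and Fads3 1.40-fold. The spread of Fads2 within groups (residual SD 0.62) was larger than that of 92.2% of all tested genes and of 86.2% of the 1000 genes nearest to it in mean level. For Elovl5 and Lpcat3 the share was 82.5% and 76.8% of the genes of like level, and for Acsl5 and Fads3 it was 48.7% and 18.9%.

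In 7 of the 9 genes, Fads1, Fads2, Elovl2, Elovl5, Acsl4, Acsl5 and Lpcat3, the 3 highest arrays were the same: Vascepa 1, vehicle 1 and vehicle 3. Vascepa 2, Vascepa 3 and vehicle 2 were the 3 lowest. In Fads1, Fads2, Elovl5 and Acsl5 the widest gap between neighbouring arrays fell between these high and low arrays, at 0.65, 0.61, 0.75 and 0.43 on the log2 scale. In Lpcat3 and Elovl2 the gap there was 0.46 and 0.27, and not the widest. Acsl4 shared the split only by a near tie, with a gap of 0.013 between vehicle 1 and Vascepa 2. Relative to the vehicle mean, the median of all 9 genes lay at 0.20, −0.28 and −0.72 on Vascepa 1, 2 and 3, and at 0.21, −0.38 and 0.14 on vehicle 1, 2 and 3. The low arrays of these 7 genes were the arrays high in small nucleolar RNAs. With the small nucleolar RNA level as a covariate the differences of Fads2, Fads1 and Lpcat3 were −0.20, −0.11 and −0.11, and the median of the 9 was −0.048. Elovl5, Acsl5 and Fads3 were at −0.048, −0.0084 and 0.15. Elovl2 and Acsl4 changed sign, to 0.13 and 0.10. Pla2g12b moved away from 0, from −0.023 to −0.28. The covariate followed the same split of arrays by which the 7 genes were grouped, so this fit is no test of RNA composition. Whether RNA composition has a part in the shared pattern was not tested.

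**Figure D3:**
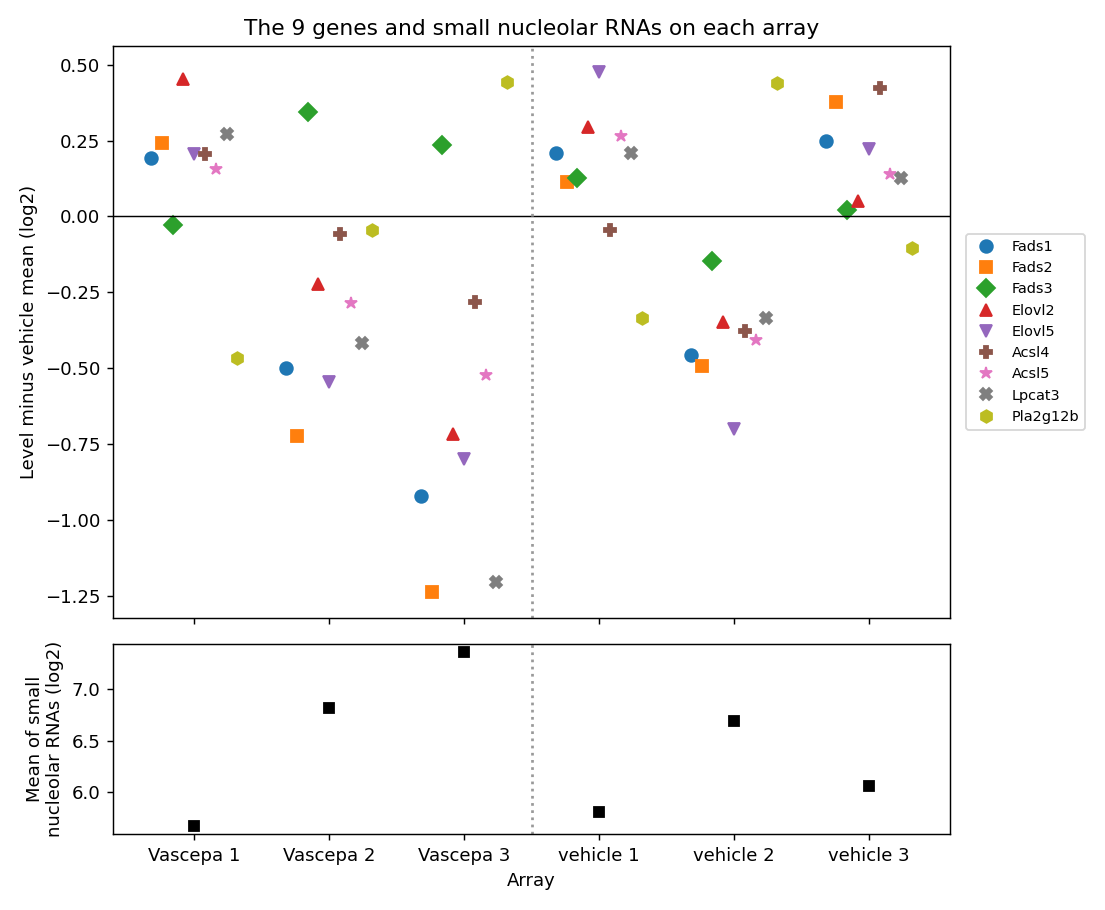
The upper panel shows the level of each of the 9 genes minus its vehicle mean (y axis, log2) on each array (x axis), and the lower panel the mean log2 level of 68 small nucleolar RNA genes. Most of the 9 genes lie under 0 on Vascepa 2, Vascepa 3 and vehicle 2, where small nucleolar RNAs are at 6.82, 7.36 and 6.69, and Pla2g12b lies highest on Vascepa 3 and vehicle 2.

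After removal of the group means, the 21 pairs among those 7 genes had Pearson r between 0.67 and 0.995 over the 6 arrays, with a median of 0.92. Elovl5 with Acsl5 was at 0.995 and Fads1 with Fads2 at 0.987. Pla2g12b ran opposite to all 7, at r between −0.98 and −0.73, and Fads3 had r between −0.33 and 0.019 with the others. These r are descriptions of genes measured in the same RNA, and in several genes the arrays fall into a high and a low cluster. The 7 genes were grouped after their values were seen.

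Many other genes followed the same arrays. Of all tested genes, 12.2% had an r over 0.9 with Fads2, 10.6% with Acsl5 and 19.4% with Lpcat3, and the median r over all genes was 0.19, 0.16 and 0.21. The genes most like Fads2 were Apmap, Eri1 and Cemip2, at r of 0.999, 0.998 and 0.998. Those most like Acsl5 were Klhl26, Lipa, the lysosomal acid lipase, and Nup214, a nuclear pore protein, at r of 0.99998, 0.999 and 0.999. Those most like Lpcat3 were Hadha, a subunit of the mitochondrial trifunctional protein, Ptbp1, a splicing regulator, and Abcf1, at r of 0.9997, 0.9994 and 0.9994.

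The other enzymes of elongation and desaturation also gave 0 calls. Counts of lower means in this and the following lists stand beside 60.1% of all genes, and list medians beside −0.063. Of 11 tested partners of the elongation cycle and electron transfer, 8 were lower and 3 higher in the Vascepa mean, with a median of −0.11 and 0 past the adjusted threshold. Tecr, the last reductase of the cycle, read 8.80, 8.14 and 7.87 on the Vascepa arrays, against 8.80, 8.62 and 8.71 on the vehicle arrays, a difference of −0.44 ± 0.26 (SE). Vascepa 1 lay within the vehicle range, and the other Vascepa arrays lay below it. Cyb5b, a cytochrome b5 of the outer mitochondrial membrane, differed by −0.53 ± 0.28 (SE). On vehicle 2 the median of this list lay at 0.15 from the vehicle mean, where the median of the 9 genes lay at −0.38. Of 7 other elongases and desaturases 4 were lower and 3 higher, with a median of −0.098. Fads6, a little-studied relative of the desaturases, read 5.23, 5.23 and 5.34 on the Vascepa arrays, against 5.01, 5.08 and 5.12 on the vehicle arrays, without overlap and 1.15-fold higher (0.20 ± 0.16, SE; limma, adjusted p = 0.976). Elovl1, an elongase of saturated very long chains, differed by −0.23 ± 0.22 (SE).

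Most other activation and remodelling enzymes had lower means in Vascepa livers, as did 60.1% of all genes, and none passed. Of 5 other ligases and fatty acid transport proteins 4 were lower and 1 higher, with a median of −0.28. Slc27a4 and Slc27a1, which take up fatty acids and activate them, differed by −0.33 ± 0.22 and −0.42 ± 0.29 (SE). Of 9 other lysophospholipid acyltransferases 7 were lower and 2 higher, with a median of −0.13. Agpat2, which makes phosphatidic acid, read 8.92, 8.85 and 8.87 on the Vascepa arrays, against 9.08, 9.01 and 8.95 on the vehicle arrays, without overlap but only 1.10-fold lower (−0.13 ± 0.16, SE; limma, adjusted p = 0.976). Agpat3, an acyltransferase with a preference for polyunsaturated chains, differed by −0.25 ± 0.26 (SE). Of 9 phospholipases and related hydrolases 7 were lower and 2 higher, with a median of −0.21, and Pla2g6, a calcium-independent phospholipase, and Pla2g15, a lysosomal one, differed by −0.36 ± 0.22 and −0.29 ± 0.23 (SE).

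All 7 tested genes of peroxisomal chain shortening, by which docosahexaenoic acid is finished, were lower in the Vascepa mean, with a median of −0.19 and 0 past the adjusted threshold. Abcd2, which carries very long-chain fatty acids into the peroxisome, read 5.32, 5.63 and 5.84 on the Vascepa arrays, against 7.11, 6.66 and 7.18 on the vehicle arrays, with all Vascepa arrays below all vehicle arrays (−1.39 ± 0.23, SE; limma, unadjusted p = 0.000292, adjusted p = 0.976). Ehhadh, the peroxisomal bifunctional enzyme, read 8.14, 8.14 and 7.74 on the Vascepa arrays, against 8.28, 8.28 and 8.45 on the vehicle arrays, also without overlap (−0.33 ± 0.19, SE; limma, adjusted p = 0.976). The groups overlapped in the other 5 genes, and they did not overlap in 8.24% of all genes. For Abcd2 the low arrays included Vascepa 1, where Fads1 and Fads2 were high.

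Among 13 regulators of desaturase transcription (SREBP, LXR, PPAR alpha and their partners) 11 were lower and 2 higher, with a median of −0.38 and 0 past the adjusted threshold. Relative to the vehicle mean, their median was 0.20, −0.42 and −1.03 on Vascepa 1, 2 and 3, and 0.24, −0.20 and −0.0095 on vehicle 1, 2 and 3. Vascepa 3 was the lowest array, as in Fads1 and Fads2. Insig1, the sterol-sensitive anchor of SREBP, read 8.40, 8.34 and 8.05 on the Vascepa arrays, against 9.42, 8.51 and 8.71 on the vehicle arrays, without overlap (−0.62 ± 0.26, SE; limma, unadjusted p = 0.0475, adjusted p = 0.976). Mbtps2, a protease that releases SREBP, read 4.37, 4.27 and 3.20 on the Vascepa arrays, against 4.49, 4.49 and 4.48 on the vehicle arrays, with Vascepa 3 farthest below the rest and a difference of −0.54 ± 0.31 (SE). Of the 67 distinct genes tested in the 8 pathway lists, 2 had an unadjusted p under 0.05 in limma (Abcd2 and Insig1), which is 2.99% beside 2.68% of all genes. The groups did not overlap in 6 of the 67, or 8.96% beside 8.24% of all genes, so both shares were near those of all genes.

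Of 7 tested genes of VLDL assembly, the setting in which Pla2g12b acts, 5 were lower and 2 higher in the Vascepa mean, their median being −0.18 and 0 past the adjusted threshold. Tm6sf2, needed for the lipid loading of VLDL, and Surf4, a cargo receptor of lipoprotein export, differed by −0.42 ± 0.27 and −0.31 ± 0.25 (SE). On Vascepa 1, 2 and 3 the median of the 7, relative to the vehicle mean, was 0.42, −0.24 and −0.78, an order of these 3 arrays opposite to that of Pla2g12b.

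**Figure D4:**
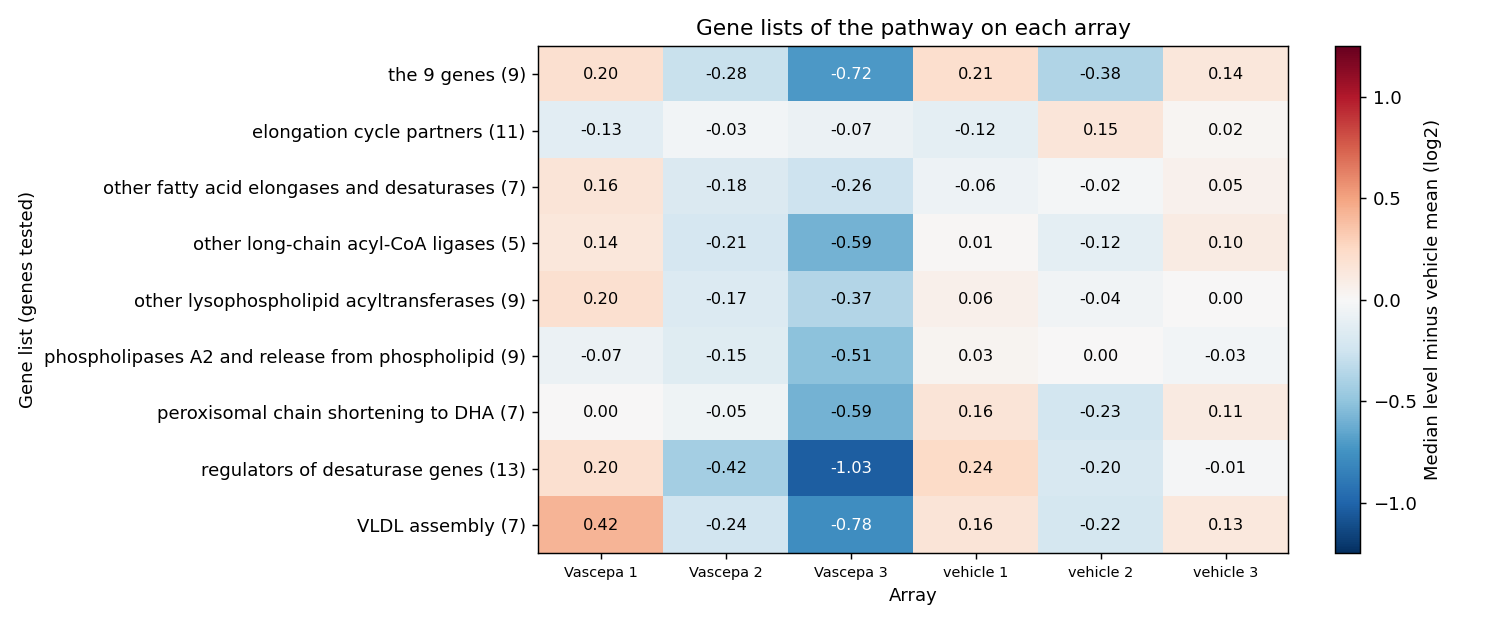
Median level minus the vehicle mean (colour and number, log2) of the 9 genes and of 8 other lists of the pathway (rows) on each array (columns). Vascepa 3 holds the lowest value in 8 of the 9 rows, and elongation cycle partners are lowest on Vascepa 1, at −0.13.

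Which arrays entered the fit changed the differences. Leaving out each array in turn gave −0.98 to −0.24 in Fads2, −0.71 to −0.15 in Fads1, −0.73 to −0.14 in Elovl5, −0.81 to −0.072 in Lpcat3, −0.42 to −0.064 in Acsl5 and 0.10 to 0.29 in Fads3. In Fads1, Fads2 and Lpcat3 the largest differences came without Vascepa 1 and the smallest without Vascepa 3. Without Vascepa 1 these 3 genes had unadjusted p of 0.0305, 0.00947 and 0.0209, and adjusted p of 0.310, 0.306 and 0.306 (limma). Their adjusted p was up to 0.9999 when other arrays were left out (limma). Sign changed when an array was left out in Elovl2 (−0.47 to 0.12), Acsl4 (−0.23 to 0.17) and Pla2g12b (−0.26 to 0.20). The 9 genes' median difference was −0.47 without Vascepa 1 and −0.072 without Vascepa 3. Of the alternatives run, only limma with estimated array weights called any of the 9 at an adjusted p under 0.05: Fads1, Fads2, Elovl5, Acsl5 and Lpcat3 lower and Fads3 higher. That fit put a weight of 39.5 on Vascepa 2, and it called 4100 of all 13493 genes.

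**Figure D5:**
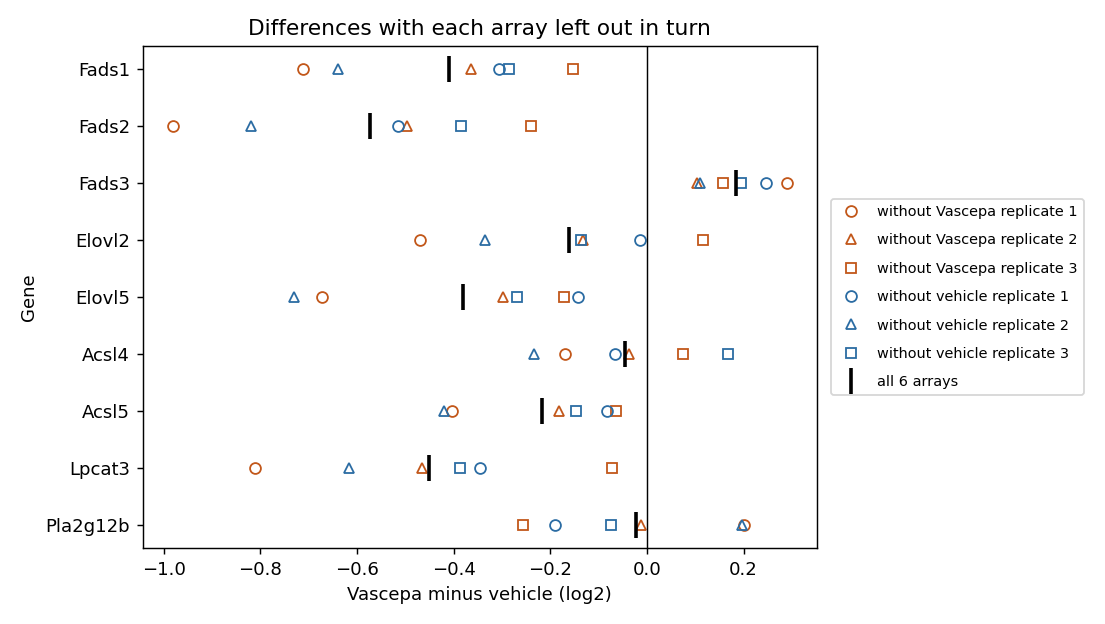
Vascepa minus vehicle difference (x axis, log2) of the 9 genes with all 6 arrays (black bar) and with each array left out in turn (open symbols, orange for Vascepa and blue for vehicle arrays). The symbols of Elovl2, Acsl4 and Pla2g12b fall on both sides of 0, and those of Fads2 run from −0.98 to −0.24.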

How the data were processed

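The values the authors deposited are log2 expression, with 1 value for each probe (a transcript cluster) on each of 6 liver arrays. The submitters' processing notes name Affymetrix Expression Console and RMA, which corrects background, quantile-normalizes and summarises probes, and compresses differences of dim genes. The sources used here do not give versions or the array's genome build. No scanner files were used and no batch was recorded. The number of arrays limits the precision.

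Of 41345 probes, 23521 had 1 gene symbol in the platform annotation, 1814 several and 16010 no entry. Symbols were updated by gene ID through RefSeq (GRCm38.p6) for 23328. Probes with 1 symbol and a mean of at least 2.65 (log2), the median over all probes, were kept, the brightest per gene, leaving 13493 genes. Vascepa and vehicle (3 arrays each) were compared by limma 3.58.1 in R 4.3.3 (lmFit, eBayes) across all genes, with Benjamini-Hochberg adjustment and a threshold of 0.05. The fit was tested on simulated data with independent noise in each gene and array. Those data held no pattern shared between genes, as these arrays do, so that test does not cover it.

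The genes and lists were chosen with earlier results of these data known, so no list was tested. Named genes are the 10 genes, the 2 with the smallest p in each pathway list, and the 3 most alike in pattern to Fads2, Acsl5 and Lpcat3. Deviations from group means gave the pattern likeness. Other marker lists (endothelial, stellate, bile duct, lymphocyte, neutrophil, erythroid, fat, acinar and muscle) gave 0 genes past the threshold. Alternatives changed the filter, normalization, variance prior, array weights, replicate block, small nucleolar RNA covariate, probe choice and arrays used. Sequences came from RefSeq.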

Additional observations from a re-analysis of the deposited data

How the results depend on the processing

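The count of 0 genes at an adjusted p under 0.05 (limma) became 4100 with array weights and 2 with the small nucleolar RNA covariate, the near-identical Cyp2b13 and Cyp2b9 (named after their values were seen), at −2.10 and −1.87. The estimation of weights stopped before it converged. The weights put 39.5 on Vascepa replicate 2 and at most 2.33 on any other array, and under them 6 of the 9 genes passed: Fads2 at −0.93, Elovl5 at −0.68, Fads1 at −0.64, Lpcat3 at −0.49, Acsl5 at −0.37 and Fads3 at 0.32 (adjusted p between 0.00471 and 0.0374). No other alternative called any of the 9, and outside the weights their lowest adjusted p was 0.306, without Vascepa replicate 1, and their highest 0.9999. The 362 genes at an unadjusted p under 0.05 (141 higher, 221 lower) became 757 with no filter, 106 with the filter at the 75th percentile, 5902 with weights and 818 with the covariate, and 141 (without vehicle replicate 3) to 2018 (without Vascepa replicate 1) with an array left out. It was 198 without vehicle replicate 1 and 221 without Vascepa replicate 2. Centring on the median gave 65 higher and 319 lower. Differences changed sign in Acsl4 (0.064 with quantile normalization again, 0.10 with the covariate), Pla2g12b (0.019 with quantile normalization again, 0.025 with weights) and Elovl2 (0.13 with the covariate). With an array left out they ran from −0.23 to 0.17 in Acsl4, from −0.26 to 0.20 in Pla2g12b and from −0.47 to 0.12 in Elovl2. Between 6 and 8 of the 9 genes were lower under every alternative, 8 of the 8 tested with the stricter filter, which drops Fads3. Same-numbered arrays of the groups had deviations correlated at 0.61, 0.11 and −0.13, and Vascepa 3 with vehicle 2 had 0.57. Deviations from a mean of 3 arrays are tied to each other, so these r cannot show whether samples were paired. The numbers were not taken as pairs. The replicate block gave 438 genes at an unadjusted p under 0.05, 0 at the adjusted threshold, and for Fads2 the same −0.57. The cause of these changes was not tested.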
